A study of Homo sapiens with 6 samples.

Results

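The clustered protocadherins are 53 protein-coding genes of human chromosome 5 whose symbols begin with PCDHA, PCDHB or PCDHG in the RefSeq gene table of GRCh38. They comprise 15 PCDHA, 16 PCDHB and 22 PCDHG genes among 19970 protein-coding genes. The first begins at 140786140 and the last ends at 141512975, a span of 726.836 kb. Peaks of 5 libraries were collected over this span and 100 kb on both sides, 926.836 kb in all, which held 60 of the 118064 peaks used from the 5 lists.

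The study used the SK-N-BE(2) line, an established line of human neuroblastoma, which is a tumour of the sympathetic lineage. The transcription factors HAND2, MEIS2 and TCF4 were mapped in it by CUT&Tag, in which an antibody steers a transposase to cut and tag DNA near the bound protein. HAND2 is a basic helix-loop-helix factor of sympathetic neurons, TCF4 is an E protein that pairs with such factors, and MEIS2 is a homeodomain protein. HAND2 and MEIS2 had 2 libraries each, TCF4 had 1, and a library made with IgG, an antibody with no chosen target, served as the control and has no peak list here. All libraries came from this 1 line with no treatment named, and nothing in the labels says that replicates were separate cultures.

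Each clustered protocadherin is an adhesion receptor of the neuronal surface, and a neuron shows the mix of receptors that its active promoters make. In the PCDHA and PCDHG clusters every variable first exon has a promoter of its own and is spliced to last exons that the cluster shares, while each PCDHB gene is a single exon. Most of these promoters are alternates, chosen at random in each neuron and kept by DNA methylation, CTCF and cohesin, with help from distant enhancers. The C-type genes, named with AC or GC, stand at the ends of the PCDHA and PCDHG arrays and are known for steadier use across neurons.

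The 5 C-type genes (PCDHAC1, PCDHAC2, PCDHGC3, PCDHGC4 and PCDHGC5) and the 48 others differ in the sequence of their starts. RefSeq windows of GRCh38.p14, running from 250 bases before to 50 bases after a start, were found for 47 of the 53 members. The windows of the 5 members with a peak at the start are given first, with each CG dinucleotide in capitals, to set the C-type starts beside an alternate one.

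PCDHAC1, chr5:140926049-140926348, plus strand: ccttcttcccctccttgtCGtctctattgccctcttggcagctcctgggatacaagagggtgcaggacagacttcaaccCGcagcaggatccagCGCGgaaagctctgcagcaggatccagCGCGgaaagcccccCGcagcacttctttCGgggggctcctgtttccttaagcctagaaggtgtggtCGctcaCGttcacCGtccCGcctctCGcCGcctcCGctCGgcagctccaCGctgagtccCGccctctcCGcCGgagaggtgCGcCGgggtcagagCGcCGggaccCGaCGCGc

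PCDHAC2, chr5:140966226-140966525, plus strand: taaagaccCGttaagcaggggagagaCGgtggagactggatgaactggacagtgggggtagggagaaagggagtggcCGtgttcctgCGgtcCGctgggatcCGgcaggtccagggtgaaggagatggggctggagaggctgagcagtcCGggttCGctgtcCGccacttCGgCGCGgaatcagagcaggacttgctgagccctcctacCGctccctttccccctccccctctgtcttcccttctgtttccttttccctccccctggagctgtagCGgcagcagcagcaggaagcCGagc

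PCDHGC3, chr5:141475716-141476015, plus strand: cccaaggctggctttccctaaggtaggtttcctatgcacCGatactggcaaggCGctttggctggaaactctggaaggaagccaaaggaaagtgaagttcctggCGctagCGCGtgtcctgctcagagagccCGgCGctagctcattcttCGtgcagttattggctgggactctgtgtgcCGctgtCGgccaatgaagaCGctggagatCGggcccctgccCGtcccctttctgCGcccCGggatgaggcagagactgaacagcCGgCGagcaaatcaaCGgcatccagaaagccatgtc

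PCDHGC4, chr5:141484780-141485079, plus strand: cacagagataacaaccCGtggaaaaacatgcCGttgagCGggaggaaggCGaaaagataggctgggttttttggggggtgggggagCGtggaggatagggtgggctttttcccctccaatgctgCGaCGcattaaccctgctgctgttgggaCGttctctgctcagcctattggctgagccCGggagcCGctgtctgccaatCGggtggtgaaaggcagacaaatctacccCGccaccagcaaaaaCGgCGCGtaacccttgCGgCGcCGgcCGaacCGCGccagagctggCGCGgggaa

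PCDHA10, chr5:140855647-140855946, plus strand: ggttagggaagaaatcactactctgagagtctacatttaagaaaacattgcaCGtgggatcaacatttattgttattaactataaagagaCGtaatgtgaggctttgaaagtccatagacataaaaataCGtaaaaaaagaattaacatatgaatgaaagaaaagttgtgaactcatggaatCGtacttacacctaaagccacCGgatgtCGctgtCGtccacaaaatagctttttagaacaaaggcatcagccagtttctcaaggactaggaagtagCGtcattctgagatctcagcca

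The last of these is an alternate start with 8 CG dinucleotides, while the 4 C-type windows above it hold 27, 15, 18 and 23 in the order given. As an alternate start with no peak in any list, PCDHA4 is shown with the E-boxes in capitals. An E-box, CANNTG on either strand, is the kind of site that basic helix-loop-helix factors such as HAND2 and TCF4 recognise.

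PCDHA4, chr5:140806818-140807117, plus strand: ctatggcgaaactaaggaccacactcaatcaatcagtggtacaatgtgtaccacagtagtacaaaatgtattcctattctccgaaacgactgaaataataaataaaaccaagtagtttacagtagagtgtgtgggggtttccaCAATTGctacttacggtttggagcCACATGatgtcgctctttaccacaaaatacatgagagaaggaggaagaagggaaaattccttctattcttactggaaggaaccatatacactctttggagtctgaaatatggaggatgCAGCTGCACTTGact

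Over the 43 windows of alternate members, G and C made up 32.3 to 51.3% (median 38.7%) and CG dinucleotides numbered 2 to 16 (median 7). In the 4 C-type windows G and C made up 59.0 to 66.0% (median 61.8%), with 15 to 27 CG dinucleotides (median 20.5). The ranges of G and C in the 2 groups did not overlap. Across all 15811 protein-coding windows the medians were 62.7% and 22, so in composition it was the alternate starts, not the C-type starts, that lay away from the usual gene.

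Motif matches are given as a description of these windows. A CANNTG match stood in 27 of the 43 alternate windows (62.8%) and in none of the 4 C-type windows, against 64.6% of all windows. Of single E-box forms, CAGCTG was in 5 of the 47 member windows (10.6%, against 17.6% of all windows), CATCTG in 7 (14.9%, against 11.7%) and CACCTG in 4 (8.51%, against 19.9%). These 3 forms are themselves among the CANNTG matches. The MEIS site TGACAG was in 3 (6.38%, against 14.7%). None of the 4 C-type windows held any of these words on either strand. These windows end 50 bases after the start, and every HAND2 and TCF4 summit at the 4 starts lay beyond that. The sequence under those summits was therefore not searched for these words.

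Each array has short words that many of its starts share. How often each word stood in the other clusters was not counted. AGCGACAT, or its complement, stood in 9 of the 13 PCDHA windows and in neither C-type window, against 0.285% of all windows; PCDHA4 above holds it, as the complement, beside its second E-box. AGCGCCAC stood in 13 of the 14 PCDHB windows, all but that of PCDHB1, against 1.499% of all windows. In PCDHG, ACAGCGGC was in 11 of 20 windows, those of PCDHGC3 and PCDHGC4 included, against 1.88% of all windows. These words were picked as the 8-base words held by most windows of a cluster, so their frequency describes the arrays and was not tested.

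Of the libraries, HAND2 replicates 1 and 2 had 30410 and 33484 peaks in use, MEIS2 replicates 1 and 2 had 9595 and 13871, and TCF4 had 30704. The median fragment pile-up at a summit was 34, 41, 22, 13 and 60 in the same order. MEIS2 replicate 2 stood apart from the rest: all 13871 of its peak identifiers carry the word Flag, which none of the other lists has, although the labels name the same MEIS2 antibody for both replicates. Results that touch MEIS2 are therefore given by replicate. Starts of 6 sympathetic genes (PHOX2A, HAND2, GATA2, GATA3, ISL1 and DBH) had a peak of both HAND2 replicates, MEIS2 replicate 1 and TCF4, and of 2 blood and 1 liver marker with a known start none had a peak in any list.

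Few protocadherin starts were occupied, and 4 of those were C-type. A member counted as called where a peak overlapped the 1 kb on either side of its start. A peak of any library lay at 5 of the 53 starts, against 55.7% of the 15817 protein-coding genes whose start is known. HAND2 had a peak of both replicates at 3 starts (5.66% of members, exact 95% binomial interval 1.18 to 15.7%), against 16.6% of all genes. The 3 were PCDHAC1, PCDHAC2 and PCDHGC3. TCF4 had a peak at 4 starts (7.55%, interval 2.09 to 18.2%), the same 3 and PCDHGC4, against 52.9% of all genes. Both shares are below the share over all genes, a description of these lists and not a test.

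MEIS2 was seen at 2 of the 53 starts in replicate 1, PCDHAC1 and PCDHAC2, where the share over all genes was 10.6%. Its replicate 2 had a peak at none (1.40% of all genes), so no member had both (0.784% of all genes) and 2 had either (11.2% of all genes). HAND2 replicate 1 by itself marked 4 starts (18.4% of all genes) and replicate 2 marked 3 (25.4% of all genes); the added start was PCDHA10, and a peak of either replicate was found at 27.2% of all genes.

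Of the 5 C-type starts, both HAND2 replicates marked 3 (exact 95% binomial interval 14.7 to 94.7%, against 16.6% of all genes). TCF4 marked 4 (28.4 to 99.5%, against 52.9% of all genes). Shares among genes of like G and C content are given below. Of the 48 others, neither marked any, which allows a share of up to 7.40% by the same kind of interval. All 16 PCDHB starts were without a peak in every list. PCDHGC5 was the 1 C-type gene with none, its nearest TCF4 summit lying 3989 bp before its start. These intervals cover counting error only, and neighbouring starts are not independent.

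**Figure D1:**
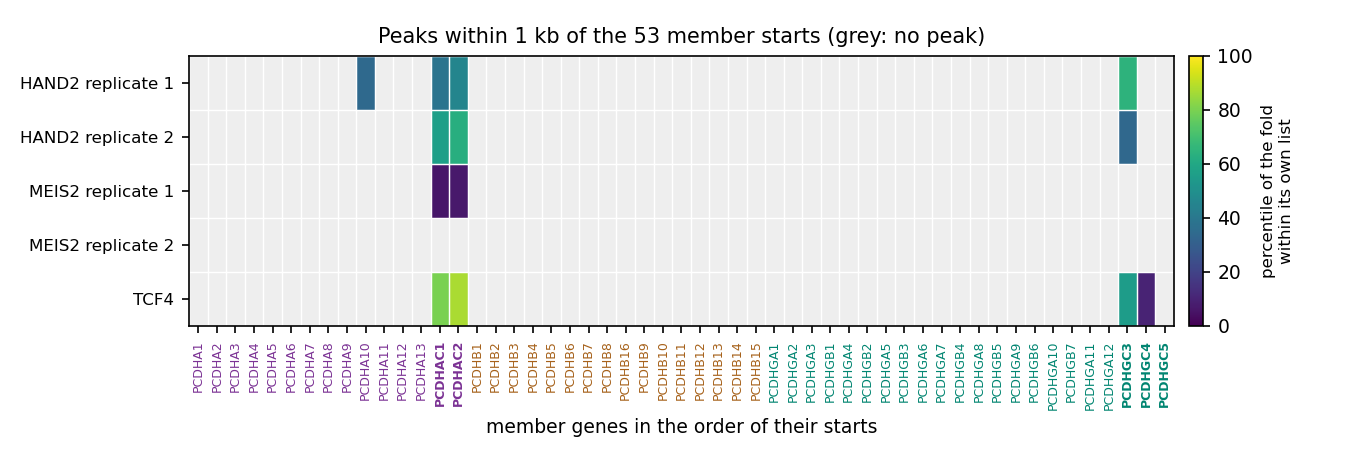
Peaks within 1 kb of the 53 member starts (columns, in the order of position, C-type names in bold) in the 5 libraries (rows), coloured by the percentile of the peak's fold within its own list, with grey for no peak. Filled cells stand at PCDHAC1, PCDHAC2, PCDHGC3 and PCDHGC4, with 1 further cell at PCDHA10 in HAND2 replicate 1, and every PCDHB column is empty.

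At PCDHAC1, which encodes the first C-type receptor of the alpha cluster, 4 libraries had a peak. The value given for a peak is its deposited fold, the summit pile-up over the local background with 1 added to each. It is followed by an exact 95% Poisson interval for counting error. The percentile of a peak is the share of peaks in the same list with a lower fold. The fold was 4.33 (3.30 to 5.59, 38.4th percentile) in HAND2 replicate 1 and 5.13 (4.06 to 6.39, 56.6th) in replicate 2. It was 3.17 (2.02 to 4.77, 5.89th) in MEIS2 replicate 1 and 9.10 (7.77 to 10.6, 80.0th) in TCF4. The TCF4 peak was thus in the upper part of its list, the HAND2 peaks near the middle and the MEIS2 peak near the bottom. Both HAND2 summits lay on the transcribed side, 135 and 132 bp after the start, and those of MEIS2 replicate 1 and TCF4 lay 520 and 525 bp after it, so the summits formed 2 places, with 3 bp between the HAND2 replicates and 5 bp between MEIS2 and TCF4.

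PCDHAC2, the other C-type gene of the alpha cluster, had the same 4 libraries. Its folds were 4.75 (3.75 to 5.94, 45.5th percentile) and 5.67 (4.65 to 6.85, 62.5th) in HAND2 replicates 1 and 2. MEIS2 replicate 1 had 3.25 (1.84 to 5.40, 6.75th) and TCF4 had 11.7 (10.1 to 13.4, 87.3rd). The HAND2 summits lay 67 and 69 bp after the start, 2 bp from each other, the TCF4 summit 195 bp after it and the MEIS2 summit 19 bp before it. In each of the 4 lists the fold at PCDHAC2 was above that at PCDHAC1, and in each the counting intervals overlapped. Whether the 2 starts differ was not tested.

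PCDHGC3, the first C-type gene of the gamma cluster, was marked by HAND2 and TCF4 and by neither MEIS2 library. HAND2 replicate 1 had a fold of 6.42 (4.81 to 8.40, 64.7th percentile) and replicate 2 had 3.77 (2.89 to 4.85, 33.6th). TCF4 had 5.40 (4.05 to 7.07, 55.3rd). Here the HAND2 replicates placed their summits 591 bp apart, 72 and 663 bp after the start, at spots where the background came to 8.99 and 16.0 IgG fragments. This start had the highest of the 3 C-type folds in HAND2 replicate 1 and the lowest in replicate 2, and in both lists its interval overlapped those of PCDHAC1 and PCDHAC2. The HAND2 replicates thus did not share an order of the 3 starts, and differences among them were not tested.

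PCDHGC4 had a TCF4 peak alone, with a fold of 2.85 (2.07 to 3.82, 9.79th percentile) and a summit 62 bp after the start. TCF4, which has no replicate, did give an order within its list: PCDHAC2 and PCDHAC1 overlapped each other, PCDHGC3 lay below both without overlap, and PCDHGC4 lay below PCDHGC3 without overlap. PCDHA10, an alternate gene, had a HAND2 replicate 1 peak alone, with a fold of 4.09 (2.44 to 6.49, 34.1st percentile) and a summit 236 bp after the start. Its −log10 q was 5.09; of the replicate 1 peaks with at least that value, 16.4% had no overlap in replicate 2.

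**Figure D2:**
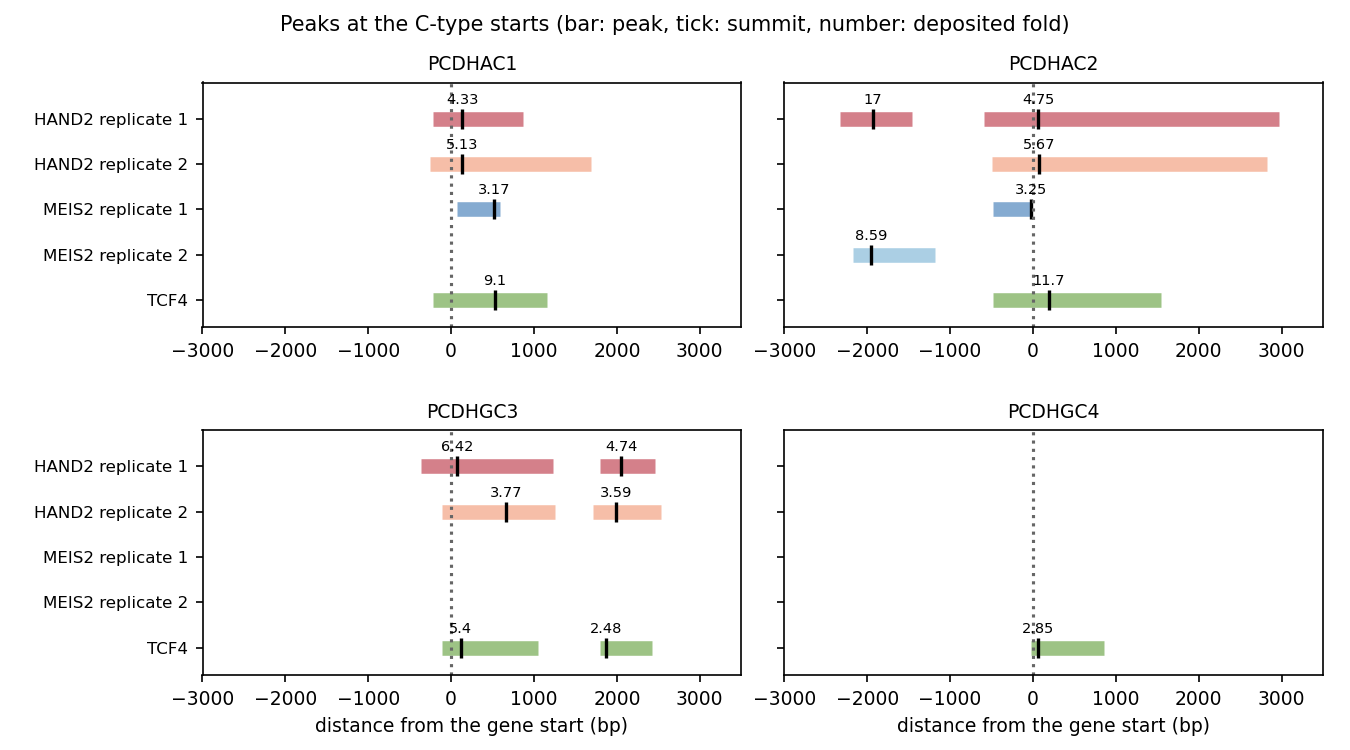
Peaks of the 5 libraries (rows) within a few kb of the PCDHAC1, PCDHAC2, PCDHGC3 and PCDHGC4 starts, by distance from the start in bp, where a bar is the peak, the tick its summit and the number its deposited fold. At PCDHAC1 and PCDHAC2 the HAND2 summits of both replicates share a place just after the start, and at PCDHAC2 the HAND2 replicate 1 and MEIS2 replicate 2 peaks stand apart, 1929 and 1955 bp before it.

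Base composition moved with the HAND2, TCF4 and MEIS2 replicate 1 calls, and its part in them was not tested. Among all genes whose window has under 40% G and C, 7.41% had a TCF4 peak, 3.27% a peak of both HAND2 replicates and 2.40% one of MEIS2 replicate 1. Among windows of 40 to 50% those shares were 16.1, 7.35 and 4.74%. None of the 25 and 16 members in these 2 classes had a call of the 3 kinds. In the class of 50 to 60%, 39.2% of all genes had a TCF4 peak, 16.9% a peak of both HAND2 replicates and 11.3% one of MEIS2 replicate 1. PCDHGC3 was the 1 of 3 members with a TCF4 peak and with peaks of both HAND2 replicates, and no member had one of MEIS2 replicate 1. At 60% or more the shares were 70.0, 19.7 and 12.3%; all 3 members there (PCDHAC1, PCDHAC2 and PCDHGC4) had a TCF4 peak, and the first 2 also had peaks of both HAND2 replicates and of MEIS2 replicate 1. A peak of any library was found at 10.3, 21.2, 44.2 and 71.4% of all genes in the 4 classes, from the lowest up, and at 1 of 25, 0 of 16, 1 of 3 and 3 of 3 members. MEIS2 replicate 2 did not share the rise, with 2.18, 3.75, 1.83 and 0.689% of all genes and no member.

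The alternate first exons resemble each other, and how the aligner placed reads that match several copies is not given in the sources used here. An empty alternate start is therefore a start with no peak in these lists, and what read placement contributed was not tested.

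**Figure D3:**
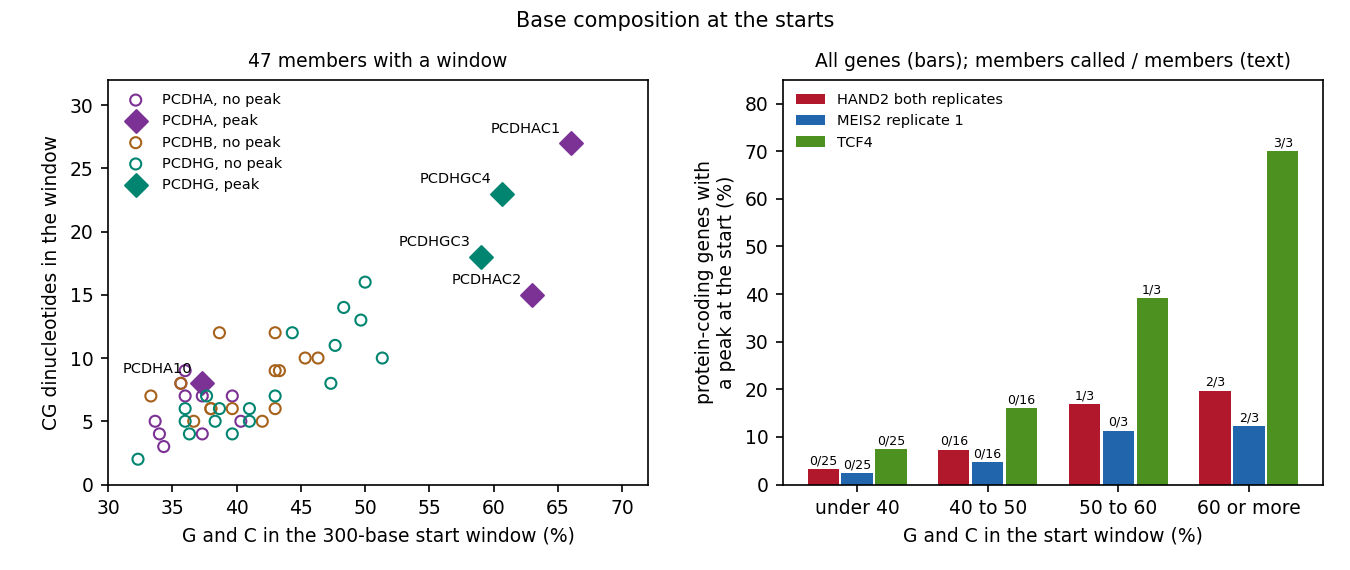
Left, G and C content (%) against the number of CG dinucleotides in the 300-base start windows of 47 members, with filled diamonds for members that have a peak of any library at the start; 4 C-type genes lie at 59.0 to 66.0% and PCDHA10 among the alternates. Right, the share (%) of all protein-coding genes with a start peak by class of G and C content, with the number of members called over members in the class printed on each bar; TCF4 runs from 7.41 to 70.0%.

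Away from the starts, peaks that overlapped by at least 1 bp were joined, which gave 24 intervals, numbered in the order of position, 17 of them touching the clusters. Of their peaks 47 overlapped the clusters themselves, and 1 more, of MEIS2 replicate 1 in number 19, lay beyond the cluster end. By number of libraries, 5 of the 17 had 1, 4 had 2, 2 had 3, 5 had 4 and 1 had all 5. Across all chromosomes 52.9% of 61457 joined intervals had 1 library and 10.2% had 4 or more. Peaks stood at 17.9 per Mb of the clusters in each HAND2 replicate, 9.63 in MEIS2 replicate 1, 2.75 in MEIS2 replicate 2 and 16.5 in TCF4, against 10.04, 11.05, 3.17, 4.58 and 10.14 per Mb of the genome. All but MEIS2 replicate 2 were thus denser in the clusters than over the genome, while member starts were called less often than gene starts at large.

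HAND2 and TCF4 shared most of their intervals within the clusters. Both HAND2 replicates were present in 10 of the 14 intervals that had either (59.8% across the genome). TCF4 was present in 8 of these 10 (53.0% across the genome), and both HAND2 replicates in 8 of the 12 TCF4 intervals (40.3%). MEIS2 replicate 1 was in 6 of the 17 intervals (9073 of 61457 across the genome), in number 19 with a peak beyond the cluster end. All 6 held both HAND2 replicates and TCF4, a combination whose share across the genome was not computed. By the looser measure of either HAND2 replicate, the share across the genome was 86.6% of MEIS2 replicate 1 intervals. MEIS2 replicate 2 was in 2 intervals, both with a HAND2 peak (35.1% across the genome). TCF4 was in 1 of them, with no share across the genome computed. Every list was taken to have been called with the IgG library as control, so shared intervals also share that control.

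The peaks were spread unevenly, in stretches that were drawn after the peaks were seen. Here a peak is counted by its summit, so the 3 peaks of number 19 that reach into the clusters, whose summits lie beyond them, are in no stretch. From the PCDHA1 start to 1 kb before PCDHAC1, 139.159 kb with 13 alternate starts held 1 peak, that of PCDHA10. The next 87.049 kb, from there to the PCDHA end, held 19 peaks with 2 C-type starts, or 21.8 per 100 kb. The gap up to PCDHB1, 39.026 kb, held 6. From PCDHB1 to 1 kb before PCDHGC3, 423.592 kb with 35 starts held 4 peaks, or 0.944 per 100 kb. The last 38.01 kb, with the 3 gamma C-type starts, held 14, or 36.8 per 100 kb. The longest runs without any peak were 154.531 kb with 19 PCDHG starts and 131.223 kb with 6 PCDHB starts.

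**Figure D4:**
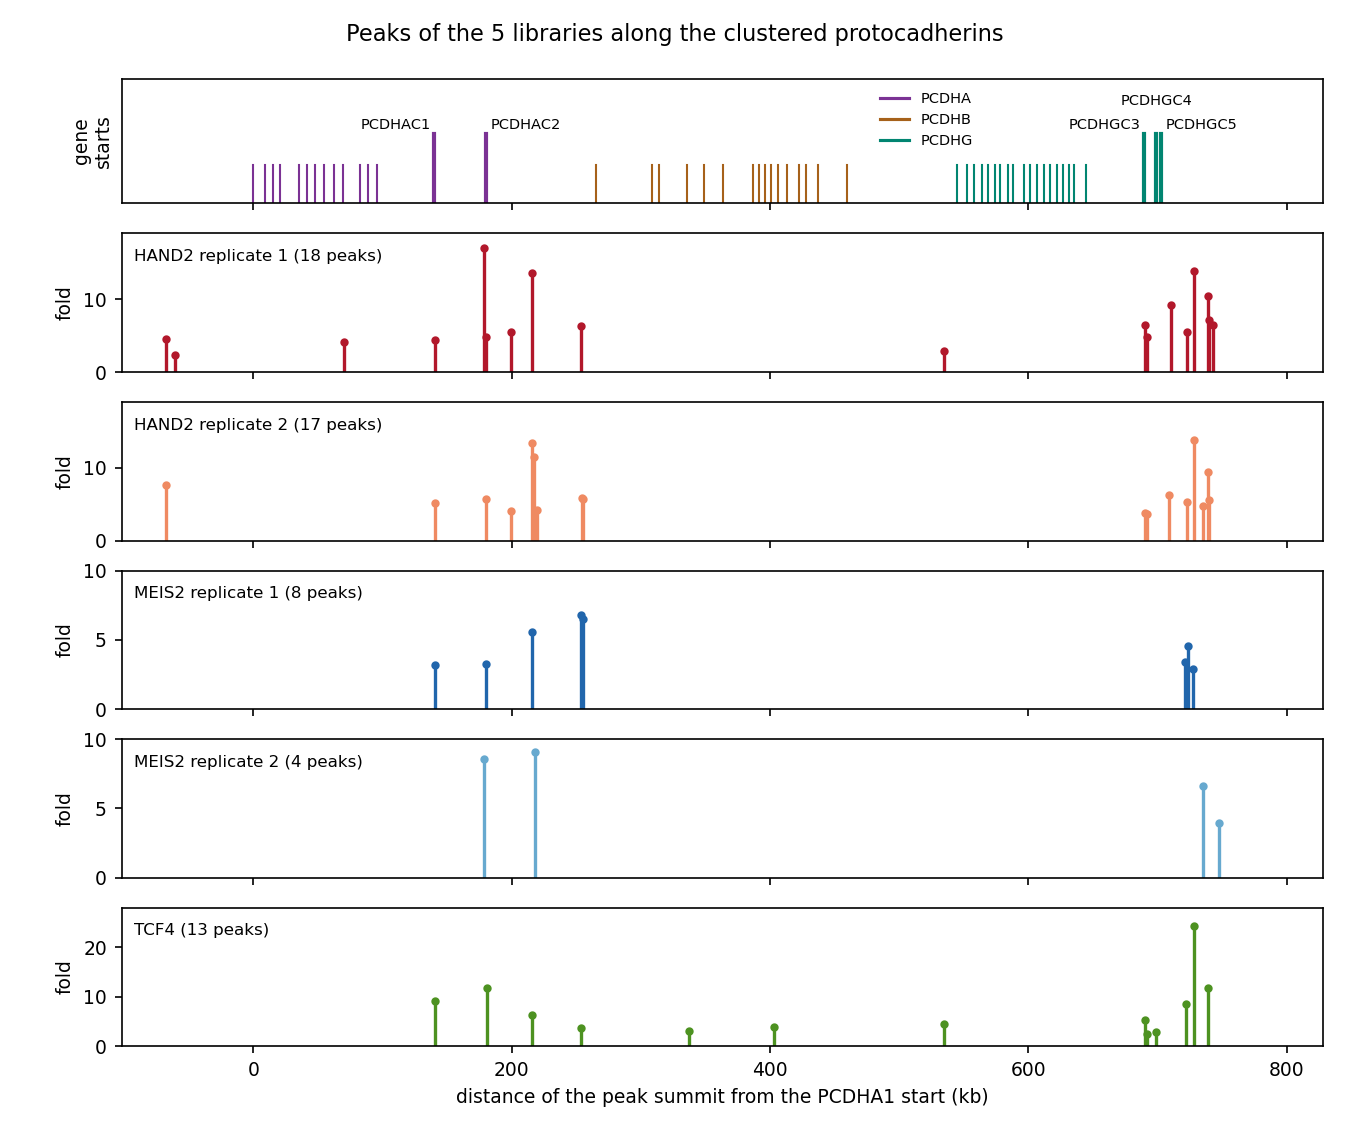
Deposited folds of the 60 peaks (vertical axes, 1 panel a library, scales differ) by distance of the summit from the PCDHA1 start in kb, below the starts of the 53 members (C-type as taller bars). Peaks gather around PCDHAC1 and PCDHAC2, in the 3′ part of PCDHA and the gap after it, and from PCDHGC3 onward, with 2 TCF4 peaks among the PCDHB genes and none along the alternate PCDHG starts.

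In the alpha cluster the interval with most libraries was number 8, chr5:141001349-141005035, in the part that holds the shared last exons of all PCDHA genes. The folds were 13.6 (11.4 to 16.2, 90.4th percentile) in HAND2 replicate 1 and 13.3 (11.3 to 15.6, 92.1st) in replicate 2, with both summits on the same base, 141002178. A second replicate 2 peak in it had 11.5 (7.93 to 16.2). MEIS2 replicate 1 had 5.57 (3.38 to 8.74, 45.2nd) with its summit 68 bp from that base, and TCF4 had 6.34 (4.97 to 7.99, 64.6th) with its summit 92 bp from it. MEIS2 replicate 2 had 9.07 (5.32 to 14.6, 76.9th), but 2299 bp away, and its peak did not touch that of MEIS2 replicate 1; the wide HAND2 replicate 1 peak joined the 2. This was the 1 interval of the clusters with both replicates of HAND2 and MEIS2 and TCF4 (1.72% of intervals across the genome). With MEIS2 replicate 2 left out, 6 intervals of the clusters held both HAND2 replicates, MEIS2 and TCF4. Among them, the MEIS2 replicate 1 peaks at PCDHAC1, PCDHAC2 and number 19 were weak, with a −log10 q of 3.70, 2.38 and 4.03. All of these fall under the cut of 5 used for a stricter list. No interval of the clusters held MEIS2 replicate peaks that touched.

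HAND2 and TCF4 ranked this interval and the C-type starts of the alpha cluster differently within their lists. In both HAND2 lists its fold lay above those of PCDHAC1 and PCDHAC2 with no overlap of counting intervals. In the TCF4 list it lay below that of PCDHAC2 with no overlap and overlapped that of PCDHAC1. The C-type starts of the gamma cluster did not show this difference. The interval lay above PCDHGC3 in both HAND2 lists with no overlap and in the TCF4 list with overlap. In the TCF4 list it also lay above PCDHGC4 with no overlap. Whether the difference in order between the lists exceeds chance was not tested.

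Number 10, chr5:141039698-141041285, lay in the gap between the PCDHA and PCDHB clusters, with its HAND2 replicate 1 summit 11224 bp before the PCDHB1 start. HAND2 replicate 1 had a fold of 6.30 (4.77 to 8.17, 64.1st percentile), and replicate 2 had peaks of 5.87 (4.55 to 7.45, 64.8th) and 5.72 (3.64 to 8.61, 63.2nd). MEIS2 replicate 1 also had 2 peaks, 6.81 (4.34 to 10.3, 62.4th) and 6.53 (3.62 to 11.03, 58.3rd), the first being its highest in the clusters. TCF4 had 3.74 (2.64 to 5.16, 28.3rd). The HAND2, MEIS2 and TCF4 summits around its left end fell within 73 bp of each other. MEIS2 replicate 1 and HAND2 peaks here stood a little above the middle of their lists, the TCF4 peak in the lower part.

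The highest HAND2 replicate 1 fold of the clusters was in number 5, just upstream of PCDHAC2, and replicate 2 had no peak there. It was 17.0 (13.1 to 21.8, 93.9th percentile), with the summit 1929 bp before the PCDHAC2 start. MEIS2 replicate 2 had a peak of 8.59 (5.34 to 13.2, 74.6th) with its summit 26 bp away, and MEIS2 replicate 1 and TCF4 had none. Of the 3613 HAND2 replicate 1 peaks with a −log10 q at least as high as its 58.0, 35 (0.969%) had no overlap in replicate 2, against 21.5% of the whole list. A HAND2 peak of this strength seen in 1 replicate was thus uncommon in these lists, and this one belongs to no count that asks for both replicates.

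Number 7 lay in the shared part of PCDHA, chr5:140985636-140986336, with HAND2 folds of 5.52 (3.89 to 7.62) and 4.12 (2.82 to 5.83) and no other factor. Number 9, also in the shared part, had HAND2 replicate 2 alone at 4.23 (2.63 to 6.49).

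The PCDHB cluster held 2 peaks, both of TCF4 alone. The first, with a fold of 3.16 (2.03 to 4.72, 16.1st percentile), had its summit 1759 bp after the PCDHB4 start, and the second, with 3.86 (2.37 to 5.99, 31.1st), 1852 bp after the PCDHB9 start. They are named because no other peak lay in the cluster. Between PCDHB and PCDHG, number 13 lay at the start of TAF7, which encodes a subunit of the general factor TFIID and is no protocadherin; there HAND2 replicate 1 had 2.84 (1.83 to 4.24) and TCF4 4.54 (3.15 to 6.35).

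In the gamma cluster, number 15 followed PCDHGC3, with summits 1871 to 2054 bp after its start. HAND2 had folds of 4.74 (3.05 to 7.07, 45.1st percentile) and 3.59 (2.39 to 5.20, 30.2nd), and TCF4 had 2.48 (4.13th). Number 17, chr5:141493698-141496732, had HAND2 alone, at 9.25 (6.55 to 12.7) and 6.27 (4.71 to 8.19), with summits 986 bp apart. Number 18, chr5:141507199-141509699, in the 3′ part that every PCDHG gene spans, had HAND2 at 5.54 (4.26 to 7.09, 56.1st) and 5.34 (4.21 to 6.69, 59.2nd). Its MEIS2 replicate 1 peaks had 3.38 (1.87 to 5.71) and 4.55 (2.72 to 7.22), and TCF4 had 8.62 (7.24 to 10.2, 78.0th). The TCF4 summit was 1264 bp from the nearer HAND2 summit, and the TCF4 and HAND2 replicate 1 peaks began on the same base, 141507485.

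The peaks with the highest −log10 q of the region in HAND2 and TCF4 (246 and 287 in the HAND2 replicates, 658 in TCF4) were in number 19, chr5:141512218-141515396, which crosses the end of PCDHG. All its summits, from 141513839 to 141514419, lay after that end at 141512975 and before the end of DIAPH1 at 141515021, a formin gene that runs toward PCDHG on the minus strand. HAND2 had 13.8 (12.4 to 15.4, 90.7th percentile) and 13.8 (12.4 to 15.2, 92.6th), with summits 4 bp apart. TCF4 had 24.3 (22.5 to 26.2, 97.2nd), rank 861 of its 30704 peaks and the highest TCF4 fold of the region. MEIS2 replicate 1 had 2.90 (1.94 to 4.17, 3.22nd). In HAND2 and TCF4 this interval was therefore near the top of the list, in MEIS2 replicate 1 near the bottom. Its background was also among the highest of the region, 29.0 to 34.9 IgG fragments, and its part in these values was not tested.

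**Figure D5:**
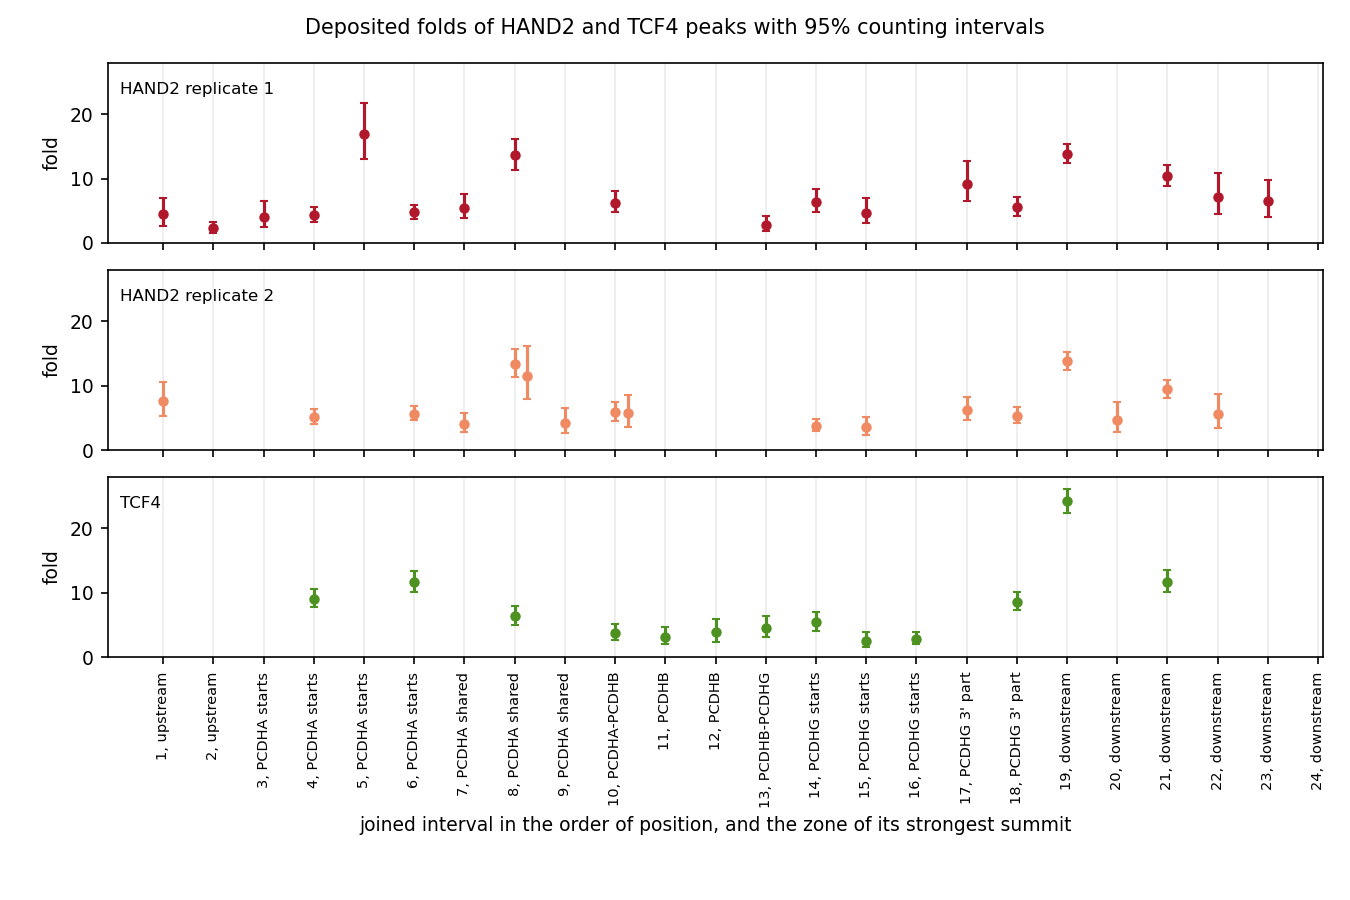
Deposited folds of HAND2 replicate 1, HAND2 replicate 2 and TCF4 peaks (points) with exact 95% counting intervals (bars) in the 24 joined intervals in the order of position, with the zone of each. HAND2 is high in intervals 8 and 19 in both replicates and in interval 5 in replicate 1 alone, while TCF4 is highest in interval 19 and next at the PCDHAC2 start (6) and in interval 21.

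The flanks added 7 intervals. Upstream, number 1 overlapped the vault RNA gene VTRNA1-2, with HAND2 at 4.47 (2.71 to 7.003) and 7.60 (5.30 to 10.6), and number 2 had HAND2 replicate 1 alone at 2.32 (1.56 to 3.34). Downstream, the other 5 lay inside DIAPH1. Among these, number 21 had 3 libraries, with HAND2 at 10.4 (8.81 to 12.2, 84.3rd percentile) and 9.42 (8.12 to 10.9, 84.5th) and TCF4 at 11.7 (10.1 to 13.5, 87.3rd), all summits within 89 bp. So the run of HAND2 and TCF4 peaks at the gamma end went on past the protocadherins into the neighbouring gene.

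Genes of related function were looked up in lists chosen with earlier results of these data known. Of 12 other protocadherins, 10 had a known start, and both HAND2 replicates marked 3 of them (16.6% of all genes), TCF4 3 (52.9% of all genes) and MEIS2 replicate 1 marked 1 (10.6% of all genes). PCDH1, which also lies on chromosome 5 beyond DIAPH1, had HAND2 folds of 3.38 and 4.10, MEIS2 replicate 1 at 2.52 and TCF4 at 4.56. PCDH9 had HAND2 at 3.04 and 3.61 and TCF4 at 5.83, PCDH15 had HAND2 alone at 3.23 and 5.13, and PCDH8 had TCF4 alone at 3.35. Of 10 classical and type II cadherins with a known start, 1 was marked by any library (55.7% of all genes), CDH2, which encodes N-cadherin, with HAND2 at 3.004 and 5.61, MEIS2 replicate 1 at 5.63 and TCF4 at 17.5.

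Among factors that shape or silence the clusters, TCF4 marked all 19 of the 19 with a known start (52.9% of all genes), and both HAND2 replicates marked 4 (21.1%, against 16.6% of all genes). SMC3, a cohesin subunit, had a peak in all 5 libraries, with TCF4 at 7.73, HAND2 at 2.93 and 3.50, MEIS2 replicate 1 at 5.28 and replicate 2 at 2.16. SMC1A, another cohesin subunit, had HAND2 at 2.67 and 3.84 and TCF4 at 6.83. CTCF, the DNA-binding partner of cohesin at protocadherin promoters, had HAND2 at 2.44 and 2.94 and TCF4 at 6.81. STAG2, also of cohesin, had HAND2 replicate 2 at 5.01, MEIS2 replicate 1 at 3.45 and TCF4 at 3.73. Of the partners of protocadherin tails inside the cell, TCF4 marked 11 of the 11 with a known start (52.9% of all genes) and both HAND2 replicates 2 (18.2%, against 16.6% of all genes), FYN and RET. FYN, a kinase, had HAND2 at 3.38 and 3.70, MEIS2 replicate 1 at 3.68 and TCF4 at 10.4, and RET, a receptor kinase, had HAND2 at 5.003 and 5.44 and TCF4 at 7.53. WASF1 and PDCD10 had HAND2 replicate 2 at 3.60 and 1.84 and TCF4 at 14.3 and 5.09. These lists hold broadly used genes, and nothing was read from their counts beyond the values.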

How the data were processed

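Peak lists of 5 CUT&Tag libraries were used, with groups taken from the antibody in the labels and replicate numbers from the titles. The submitters' processing notes name bcl2fastq 2.17, Bowtie2 and MACS3 3.0.0a6 and the hg38 build. The Bowtie2 version and the options of the aligner and peak caller are not given in the sources used.

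The deposited lists give per peak a position, a score, the fold, −log10 p and −log10 q, and the offset of the summit. The fold is the ratio of summit pile-up to local background, with 1 added to each. All these values were written by the authors' peak caller for each library by itself. The deposited score was not used. The lowest deposited −log10 q was 2.00 to 2.02. Folds are ranked within a list and not compared between lists. Chromosomes 1 to 22 and X were kept, which dropped no HAND2 peak, 3 and 5 MEIS2 peaks (replicates 1 and 2) and 7 TCF4 peaks. Coordinates are 1-based.

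The lists hold no read totals. The whole pile-up that gives both the deposited fold and p within a relative tolerance of 5e-05 was found for 100% of peaks, and the method was tested on simulated data. It gives the Poisson interval of a fold, with the background held fixed, and the background in IgG fragments, a scaled level and not a count. The depth relative to IgG read this way was 0.789 and 0.932 (HAND2), 0.248 and 0.368 (MEIS2) and 0.784 (TCF4). The labels name no molecular identifiers, so intervals cover counting error only.

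Gene ends came from the RefSeq table of GRCh38.p14 and strands from its promoter windows, which gave a start for 15817 of 19970 protein-coding genes. The 6 members with no window (PCDHA3, PCDHA13, PCDHB6, PCDHB11, PCDHGA12 and PCDHGC5) were placed on the plus strand like the other 47. Exons were not used. Values are described with no test across samples, since the lists hold no counts per sample.

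Members, lists and stretches were chosen with earlier results of these data known. Named are members with a start peak, intervals of 3 or more libraries, the highest fold of each library in the clusters, and up to 4 genes of each other list; other intervals and the sympathetic markers were named after their values were seen. Alternatives tried were stricter lists, other windows and overlaps, either gene end, and leaving out each replicate. Python 3.11.15, pandas 2.3.3, numpy 2.4.6, scipy 1.17.1 and matplotlib 3.10.9 were used.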

Additional observations from a re-analysis of the deposited data

How the results depend on the processing

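Of 61 alternative values, 47 stayed within 1.5 times the reported count and 14 did not. With the 5000 peaks of highest −log10 q in each list, the 17 intervals of the clusters fell to 6, starts with both HAND2 replicates from 3 to 0, TCF4 starts from 4 to 2, starts with any library from 5 to 2 (PCDHAC1 and PCDHAC2), and intervals with all 3 factors from 1 to 0. Counting a peak at either gene end gave 24 members for HAND2, 24 for TCF4 and 25 for any library, because all 22 PCDHG genes share the end that interval 19 crosses. Members with a MEIS2 start peak, 0 with both replicates, became 2 with either replicate and 1 at 2 kb (PCDHAC2). The 2 with either replicate, PCDHAC1 and PCDHAC2, rest on replicate 1 peaks with a −log10 q of 3.70 and 2.38. A list cut at a −log10 q of 5 does not hold these 2 peaks. Intervals with all 3 factors became 6 with either replicate. Leaving out each replicate in turn gave 16 to 19 intervals, 3 to 4 HAND2 starts, 0 to 2 MEIS2 starts (2 without MEIS2 replicate 2), 4 to 4 TCF4 starts, 4 to 5 starts with any library, and 0 to 6 intervals with all 3 factors (0 without HAND2 replicate 1, 6 without MEIS2 replicate 2). These changes follow from fewer peaks or from a looser rule. The counts of starts with any library were added after the data were seen. No paired analysis was possible because the results come from no test across samples.

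The MEIS2 libraries had the lowest depth relative to IgG, 0.248 and 0.368, and the lowest median pile-ups at their summits, 22 and 13. Replicate 2 had the higher depth of the pair but the lower pile-up. What depth contributed to the MEIS2 calls was not tested. TCF4 has 1 library, and its values have no replicate check. Without counts per base, signal under the threshold at an empty start cannot be told from none.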

Other observations

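Inside DIAPH1, beyond the protocadherins, 4 further intervals were found next to the one described above. Number 20 had HAND2 replicate 2 at a fold of 4.72 (2.86 to 7.40) and MEIS2 replicate 2 at 6.63 (3.75 to 11.0), with summits 529 bp apart. Number 22 had HAND2 alone, at 7.17 (4.51 to 10.9) and 5.60 (3.39 to 8.79), with summits 73 bp apart. Number 23 had HAND2 replicate 1 alone at 6.50 (4.09 to 9.87), and number 24 had MEIS2 replicate 2 alone at 3.97 (1.81 to 7.97). Both MEIS2 replicate 2 peaks of this gene were without a peak of MEIS2 replicate 1.

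Of the 6 protein-coding genes in the gaps and flanks, 5 had a known start. TCF4 marked the starts of TAF7 and DIAPH1 (52.9% of all genes), the latter with a fold of 4.70. Both HAND2 replicates marked none (16.6% of all genes). HARS1 and HARS2, which encode histidyl-tRNA synthetases, and ZMAT2 had no start peak in any list.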
